A study of Mus musculus with 4 samples.

Results

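Genes that cause hereditary deafness when mutated, or that build the stereocilia of hair cells, were read in cochlear ducts of E14.5 mouse embryos. The embryos were with and without a deletion of *Tbx2* targeted to the prosensory domain. The set was a named list of 47 genes, and their values here were not part of its rule. The list was, however, chosen with earlier results of these data known. Of the 47 genes, 45 had a probe under their name on the array, with 73 probes in all. The whole array held 29924 genes and 39429 probes. *Diaph1* and *Lrtomt* had no probe under these names and were not analysed here.

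Hair cells carry a bundle of actin-filled stereocilia on their upper surface. Unconventional myosins move cargo along and anchor the actin core, the Usher proteins join neighbouring stereocilia through tip links, and the mechanotransduction complex at the lower end of each tip link opens when the bundle is deflected. Mutations in most of these genes cause deafness in mice and humans, and other deafness genes act in the synapse of hair cells, in the tight junctions of the duct, in the ion supply of endolymph or in the surrounding matrix.

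Each of 4 two-colour Agilent arrays compared RNA of 1 mutant pool with RNA of 1 control pool, so that each genotype had 4 pools. Mutants were *Sox2-Tbx2LOF*, labelled Sox2(creERT2);Tbx2(fl/fl), which carry CreERT2 in place of 1 *Sox2* copy and 2 *loxP*-flanked *Tbx2* alleles. Controls were labelled Tbx2(fl/n.d.), have no Cre in their label, and had 1 *Tbx2* allele that the labels leave undetermined. Deletion of *Tbx2*, the replaced *Sox2* copy and CreERT2 itself thus differ together between the genotypes and cannot be told apart here. All embryos were NMRI, all dams had received 4 mg of tamoxifen by mouth at E12.5, and whole ducts were dissected at E14.5 after removal of the spiral ganglion. CreERT2 is active where *Sox2* is transcribed, so that prosensory cells are the target, whereas the RNA came from the entire duct. By the methods, mutants came from dams homozygous for an *R26*mTmG reporter, so that Cre-negative littermates carry it too, and the labels list it for neither genotype. Arrays 1 and 2 held female pools and arrays 3 and 4 male pools. Dyes were swapped within each sex: mutant RNA carried Cy5 on arrays 1 and 3, and Cy3 on arrays 2 and 4.

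All values below are log2 ratios of mutant over control within an array, averaged over 4 arrays with their SD, or normalised log2 signals of single pools. A probe counted as well above background in a pool where at least 50% of its spots carried the scanner software's flag, and it was tested where this held in at least 4 of the 8 pool measurements. The test was limma, with p-values adjusted over 21042 genes. The p-values rest on the spread between these 4 pairs of pools that a dye term leaves, pooled in part with that of all genes. Of 157716 gene spots on each array, 8.29 to 8.56% were left out as outliers, and 69.2 to 72% of probes were above background in a channel. *Tbx2* itself had a ratio of -0.12 ± 0.098 (SD, n = 4; limma adjusted p = 0.124) and was lower on 4 of 4 arrays. Where its probe lies relative to the deleted exons was not analysed here. *Sox2* had a ratio of 0.012 ± 0.18 (adjusted p = 0.935). An *Esr1* probe, which reads the oestrogen receptor that CreERT2 carries a part of, was above background in 4 of 4 mutant and 0 of 4 control pools. Its signal in mutants exceeded that in controls at least 4.24-fold (limma adjusted p = 6.0e-06). The other 3 *Esr1* probes were above background in 0 of 8 pools.

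Transcripts of most of the deafness and stereocilia genes were detected at E14.5, as were those of most genes on the array. Of the 29924 genes of the whole array, 20174 had a probe above background in all 8 pools and 21042 in at least 4. Of the 45 genes on the array, 36 were above background in all 8 pools, 1 in 4 to 7 pools, 2 in 1 to 3 pools and 6 in none. Those in no pool were *Myo3a*, an actin-based motor of the stereocilium tip, *Strc*, the link protein stereocilin, *Ptprq*, a phosphatase of the bundle base, *Grxcr2*, a glutaredoxin-like bundle protein, *Slc26a5*, the outer hair cell motor prestin, and *Gipc3*, an adaptor of the hair cell. *Tmc2*, the early channel subunit, was above background in 1 mutant and 0 control pools, and *Cabp2*, a calcium sensor of the synapse, in 1 mutant and 2 control pools. For these 8 genes no ratio is given. *Grxcr1* was the only gene of the 45 that was above background in one genotype more often than in the other by at least 2 pools, with 4 control and 0 mutant pools. The share of all genes that did so was not counted.

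Thus 37 of the 45 genes were tested. *Myo15* and *Myo7a* were higher in the mutant at adjusted p below 0.05, and *Grxcr1* and *Tmie* were lower. These 4 of 37 genes are 10.8%, beside 5.18% of all genes tested (1091 of 21042). *Grxcr1* was tested only through the control pools, in which it was brighter, and with a filter on all 8 pool measurements 3 of 36 genes passed, beside 5.19% of all genes. At an unadjusted p below 0.05 there were 13 of the 37 and 4258 of all genes. By direction, 2.26% of all genes were higher and 2.92% lower. With the additional demand of a 1.5-fold difference, *Grxcr1* alone remained, and none with the filter on all 8 measurements, beside 0.442% of all genes (93 genes). The median ratio of the 37 genes was 0.0031, that of all genes 0.0024, and 18 of the 37 ratios lay below 0 and 19 above. In RNA of whole ducts, fewer cells of a type and less RNA per cell cannot be told apart.

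**Figure D1:**
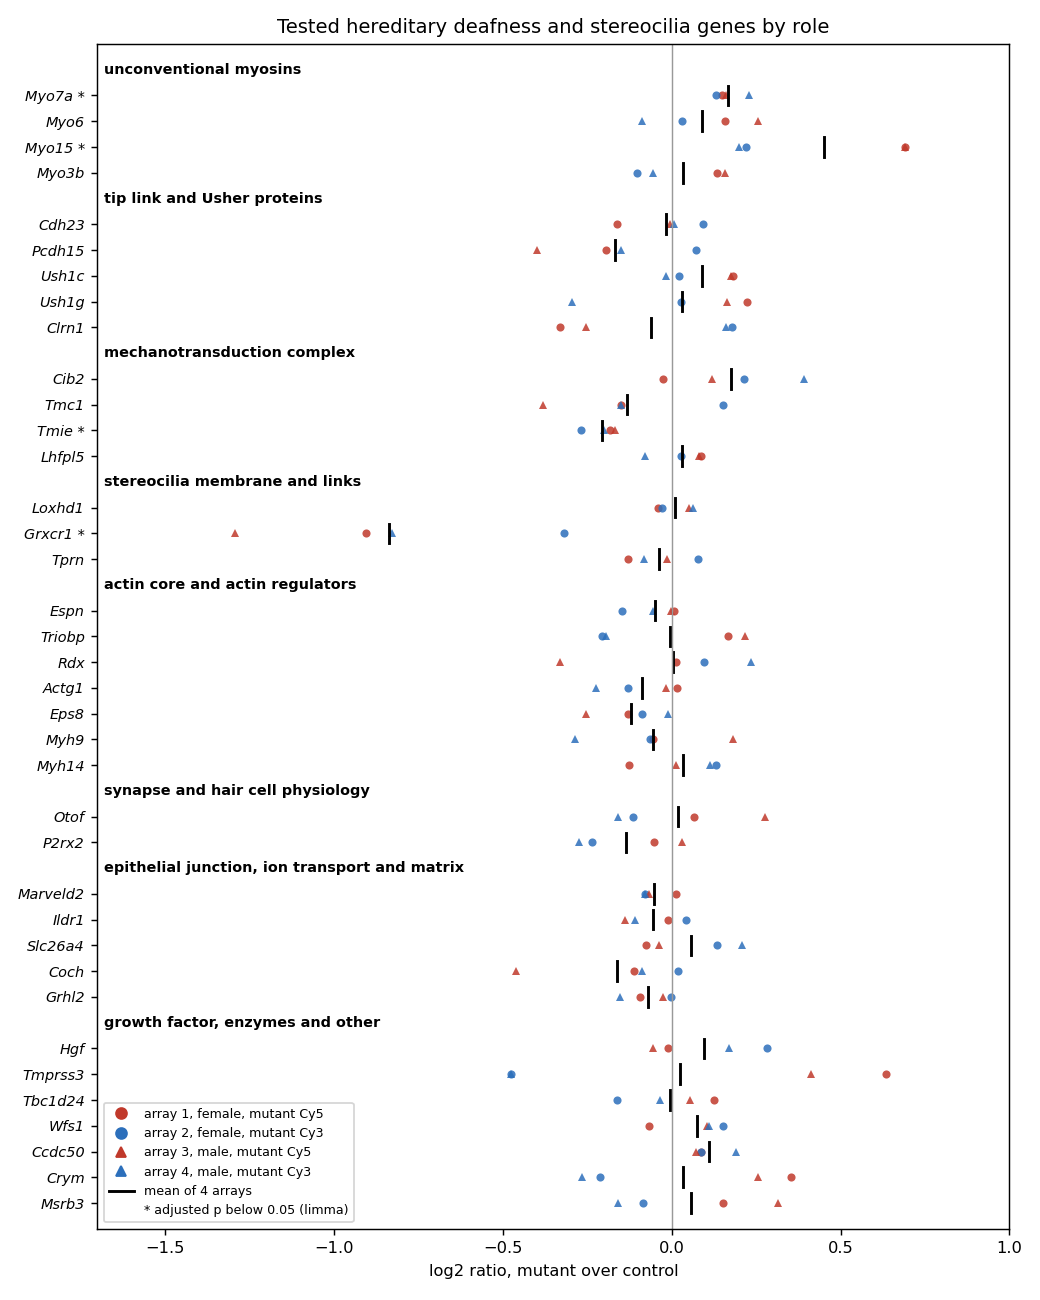
Log2 ratio of mutant over control (x axis) for the 37 tested deafness and stereocilia genes grouped by role, with 1 point per array (circles female, triangles male, red mutant in Cy5, blue mutant in Cy3) and a bar at the mean. *Myo15* lies at 0.45 and *Grxcr1* at a fitted -0.84 that rests on mutant signals not above background, and red and blue points lie apart for *Tmprss3*, *Crym* and *Clrn1*.

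Among the unconventional myosins, *Myo15* carries the proteins that lengthen stereocilia to their tips. Its probe lay on chromosome 11 of mm9 from 60341812 to 60341871. The normalised log2 signals were 9.36, 9.30, 9.46 and 9.33 in mutant pools 1 to 4 and 8.67, 9.08, 8.77 and 9.13 in control pools 1 to 4. Each mutant pool was brighter than each control pool. *Myo15* thus had a ratio of 0.45 ± 0.28 (SD, n = 4; adjusted p = 0.00031 in limma, SE 0.033), a 1.37-fold difference, which was above 0 on 4 of 4 arrays. The ratio was 0.69 on both arrays with the mutant in Cy5 and 0.22 and 0.20 on the arrays with the mutant in Cy3. The means of females and males were 0.45 and 0.45. Without a dye term the same ratio had an adjusted p of 0.126, and the call was retained under the other alternatives and without any single array (limma adjusted p from 0.00042 to 0.012).

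*Myo7a*, the motor that holds the upper end of the tip link and whose loss underlies Usher syndrome, had a smaller ratio. Its probe lay on chromosome 7 of mm9 from 105199837 to 105199896. Signals were 9.57, 9.65, 9.59 and 9.65 in the mutant and 9.42, 9.52, 9.43 and 9.43 in the control. All mutant pools lay above all control pools, with a gap of 0.052 between the nearest pools. This corresponds to a ratio of 0.17 ± 0.043 (n = 4; limma SE 0.036, adjusted p = 0.0398), a 1.12-fold difference. Without array 1, 3 or 4 its adjusted p was 0.133, 0.179 and 0.20, and the call was also lost with the unpaired comparison (0.195), without a dye term (0.192) and in 4 further settings (0.0514 to 0.0988).

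*Myo6*, the motor that runs towards the base of the bundle, and *Myo3b*, a motor of the tip, had ratios of 0.088 ± 0.15 (adjusted p = 0.254) and 0.033 ± 0.13 (0.654). The fold differences of *Myo15* and *Myo7a* both lay below 1.5.

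None of the 5 tip link and Usher genes passed the limma test (2 at an unadjusted p below 0.05). Among the brightest probes, the largest ratio was that of *Pcdh15*, protocadherin 15, which forms the lower part of the tip link. Its brightest probe gave -0.20, 0.072, -0.40 and -0.15 on arrays 1 to 4 and a mean of -0.17 ± 0.19 (limma adjusted p = 0.115). Array 2 stood on the other side of 0 from the other arrays, and without it the ratio was -0.22 with a limma adjusted p of 0.045. Without array 1, 3 or 4 *Pcdh15* did not pass (limma adjusted p = 0.141, 0.426 and 0.451). With median centring of all arrays it passed (-0.19, adjusted p = 0.0455). The other 4 tested probes of *Pcdh15* lay between -0.051 and 0.044. *Cdh23*, the upper tip link cadherin, had a ratio of -0.017 ± 0.11. *Ush1c*, the scaffold harmonin, stood at 0.090 ± 0.10, *Ush1g*, the scaffold SANS, at 0.030 ± 0.23, and *Clrn1*, the membrane protein clarin 1, at -0.061 ± 0.27. A dimmer probe of *Ush1c* gave 0.22 ± 0.21.

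In the mechanotransduction complex, *Tmie*, the membrane protein that couples the tip link to the channel, was lower in the mutant. Its probe lay on chromosome 9 of mm9 from 110768787 to 110768846. Signals were 8.19, 8.44, 8.32 and 8.28 in the mutant and 8.38, 8.71, 8.48 and 8.48 in the control. The pools of the genotypes overlapped, since mutant pool 2 was brighter than control pool 1, but within each array the mutant was dimmer. Averaged over the arrays it was -0.21 ± 0.045 (n = 4; adjusted p = 0.0169 in limma, SE 0.035), a 1.15-fold difference. The call was lost without array 1, 2 or 3 (adjusted p = 0.0936, 0.0517 and 0.0905), without a dye term (0.103) and when the pools were compared unpaired (0.510).

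*Cib2*, the calcium-binding subunit of this complex, had ratios of -0.025, 0.21, 0.12 and 0.39 on arrays 1 to 4. Its mean of 0.18 ± 0.18 missed the threshold (limma adjusted p = 0.0684) and passed it without array 2 (0.0377). Without array 1, 3 or 4 it did not pass (limma adjusted p = 0.126, 0.309 and 0.307). *Cib2* is shown here after its values were seen. *Tmc1*, the pore-forming subunit, had a ratio of -0.13 ± 0.22 (adjusted p = 0.260) and *Lhfpl5*, a tip link partner, 0.029 ± 0.076 (0.712). A dimmer probe of *Lhfpl5* gave -0.24 ± 0.16.

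*Grxcr1*, a glutaredoxin-like protein of the stereocilium that is needed for bundle growth, showed the largest difference of the 37 genes. Its probe lay on chromosome 5 of mm9 from 68557514 to 68557573. Signals were 6.33, 6.68, 6.55 and 6.65 in mutant pools 1 to 4 and 7.23, 7.001, 7.84 and 7.48 in control pools 1 to 4. Every control pool was brighter than every mutant pool, and only the control pools were well above background. Because no mutant pool was above background, the difference is a bound, at least 1.70-fold lower in the mutant. For it, each mutant signal was raised to at least the lowest signal that counted as above background on its array. The fitted ratio of -0.84 ± 0.40 (n = 4; adjusted p = 0.0018 in limma, SE 0.089), below 0 on 4 of 4 arrays, is measured against mutant signals not above background, and the gene entered the test only through its control pools.

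The fitted *Grxcr1* ratio differed between settings. It was -1.25 with a normexp offset of 10, -2.49 with Agilent's processed signals (limma adjusted p = 0.0028) and -1.46 in the authors' value table (0.0563, so that the call was lost). The fitted ratios were -0.90 and -0.32 on the female arrays and -1.29 and -0.83 on the male arrays, with the same limit. Leaving out 1 array at a time gave -0.96 to -0.71, with adjusted p-values from 2.8e-05 to 0.0423.

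*Loxhd1*, a protein of the stereocilium membrane, and *Tprn*, taperin of the bundle base, had ratios of 0.011 ± 0.054 (adjusted p = 0.910) and -0.038 ± 0.089 (0.681). Together with *Grxcr1*, 3 of the 6 genes of this group were tested.

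**Figure D2:**
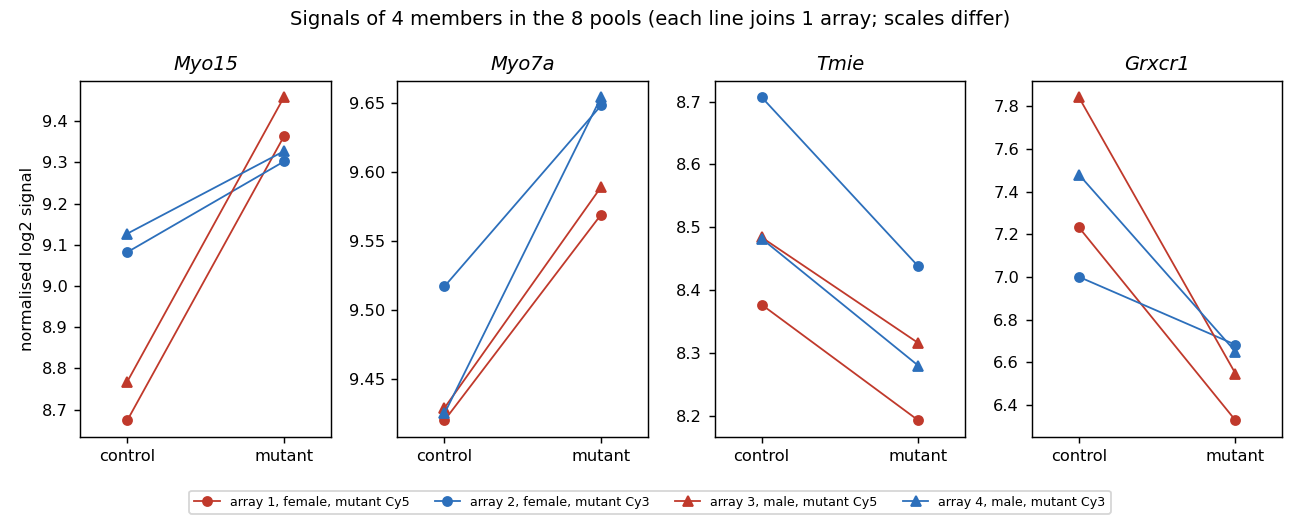
Normalised log2 signals (y axis, scales differ) of *Myo15*, *Myo7a*, *Tmie* and *Grxcr1* in 4 control and 4 mutant pools, with a line joining the pools of 1 array. The genotypes do not overlap for *Myo15*, *Myo7a* and *Grxcr1*, whereas the *Tmie* pools overlap although each line falls.

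The sequences around the starts of the 4 called genes are given because these genes differed between the genotypes of a T-box factor mutant. They come from RefSeq on GRCm38.p6, run from 250 bases before to 50 bases after the start, and are written 5′ to 3′ on the strand of the gene. Capitals mark CAGCTG, an E-box of the kind bound by basic helix-loop-helix factors, and GGTGTGA, a T-box half-site, searched on both strands. Positions count from the start, with the first transcribed base at 0. The *Myo15* window (chr11:60469089-60469388, plus strand) held an E-box at -82, the 2 *Myo7a* windows (chr7:98119444-98119743 and chr7:98109199-98109498, minus strand) at 13 and 42, and the *Tmie* window (chr9:110880024-110880323, minus strand) at -206. The second *Myo7a* window also held a T-box half-site at -120, and the *Grxcr1* window (chr5:68031585-68031884, plus strand) held neither.
Myo15: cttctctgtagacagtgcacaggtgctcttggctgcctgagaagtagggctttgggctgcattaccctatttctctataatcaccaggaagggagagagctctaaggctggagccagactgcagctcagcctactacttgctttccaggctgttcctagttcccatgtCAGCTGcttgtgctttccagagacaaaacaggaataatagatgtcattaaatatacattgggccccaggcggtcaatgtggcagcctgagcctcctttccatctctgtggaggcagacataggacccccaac
Myo7a start 1: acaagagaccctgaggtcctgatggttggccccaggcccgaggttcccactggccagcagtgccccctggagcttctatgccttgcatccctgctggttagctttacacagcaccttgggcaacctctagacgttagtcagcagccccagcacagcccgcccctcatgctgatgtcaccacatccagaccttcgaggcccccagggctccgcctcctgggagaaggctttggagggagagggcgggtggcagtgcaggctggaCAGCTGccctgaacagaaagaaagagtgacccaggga
Myo7a start 2: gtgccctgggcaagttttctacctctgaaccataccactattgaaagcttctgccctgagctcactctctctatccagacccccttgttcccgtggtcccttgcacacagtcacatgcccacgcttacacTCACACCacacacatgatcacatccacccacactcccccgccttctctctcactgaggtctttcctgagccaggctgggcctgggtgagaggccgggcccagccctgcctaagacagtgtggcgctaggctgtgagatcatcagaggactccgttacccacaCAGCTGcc
Tmie: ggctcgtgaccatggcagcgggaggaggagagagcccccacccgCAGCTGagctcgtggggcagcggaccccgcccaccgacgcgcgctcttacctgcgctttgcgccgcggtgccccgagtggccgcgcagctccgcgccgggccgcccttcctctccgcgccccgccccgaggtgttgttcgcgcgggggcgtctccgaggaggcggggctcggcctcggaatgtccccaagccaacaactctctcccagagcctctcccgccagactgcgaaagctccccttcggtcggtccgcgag
Grxcr1: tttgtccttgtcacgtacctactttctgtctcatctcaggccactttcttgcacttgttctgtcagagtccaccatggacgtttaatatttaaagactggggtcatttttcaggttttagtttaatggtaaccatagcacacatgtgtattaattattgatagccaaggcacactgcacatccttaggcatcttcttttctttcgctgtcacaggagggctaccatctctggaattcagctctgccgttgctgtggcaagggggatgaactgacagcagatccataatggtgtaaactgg

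Windows were found by symbol for 35 of the 47 genes, 45 windows in all. CAGCTG was in 9 of these (20.0%), beside 16.3% of 32851 windows of all genes. GGTGTGA was in 3 (6.67%), beside 3.98% of all. A match only describes the letters. The other windows with the half-site belonged to *Tmc1*, which did not pass the test, and to *Strc*, which was not above background.

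None of the 7 tested genes of the actin core passed the limma test (2 at an unadjusted p below 0.05). Ratios of their brightest probes ran from -0.12 to 0.033. *Eps8*, which caps and bundles actin at the tips, had the largest of these. It stood at -0.13, -0.088, -0.25 and -0.010 on arrays 1 to 4, on average -0.12 ± 0.10 (limma adjusted p = 0.131). Its mutant signals of 12.67 to 12.82 overlapped the control signals of 12.77 to 12.92. A dimmer probe of *Eps8* gave -0.017 ± 0.034. *Actg1*, the cytoplasmic gamma-actin, was read by 5 tested probes with ratios from -0.10 to 0.026, and since actin genes are near-identical these probes may read other actin transcripts. *Espn*, the bundling protein espin, had -0.050 ± 0.071, and *Rdx*, radixin of the membrane anchor, 0.0031 ± 0.24. By their brightest probes, *Triobp*, of the stereocilia rootlet, and the non-muscle myosins *Myh9* and *Myh14* lay between -0.056 and 0.033. A dimmer probe of *Triobp* gave -0.14 ± 0.14.

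In the synapse and physiology group only *Otof*, the otoferlin of vesicle release, and *P2rx2*, an ATP-gated channel, could be tested, and neither passed (1 at an unadjusted p below 0.05 in limma). *P2rx2* had ratios of -0.054, -0.24, 0.030 and -0.28 on arrays 1 to 4 and a mean of -0.13 ± 0.15 (limma adjusted p = 0.0766). It was lower on 3 of 4 arrays, and its mean over the arrays with the mutant in Cy5 was -0.012, against -0.26 with the mutant in Cy3. *Otof* stood at 0.017 ± 0.20 (0.870).

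None of the 5 genes of junctions, ion transport and matrix passed either (1 at an unadjusted p below 0.05 in limma). *Coch*, the extracellular protein cochlin, had ratios of -0.11, 0.019, -0.46 and -0.089, on average -0.16 ± 0.21 (limma adjusted p = 0.171). Array 3 stood lowest, with a control signal of 12.85. *Marveld2*, tricellulin of the corners where 3 cells meet, and *Ildr1*, its partner there, had -0.054 ± 0.044 and -0.054 ± 0.085. *Slc26a4*, the anion exchanger pendrin, had 0.057 ± 0.14, and *Grhl2*, an epithelial transcription factor, -0.069 ± 0.068.

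Of the remaining 7 tested genes, which code for a growth factor, enzymes and other proteins, none passed the limma test (2 at an unadjusted p below 0.05). *Ccdc50*, a cytoplasmic ubiquitin-binding protein, had the largest ratio, with 0.087, 0.087, 0.073 and 0.19 on arrays 1 to 4 and a mean of 0.11 ± 0.054 (limma adjusted p = 0.140). Its other probes gave -0.19 ± 0.24 and -0.010 ± 0.18, so that the probes differed in sign. *Hgf*, hepatocyte growth factor, had 0.096 ± 0.16 (0.197), *Wfs1*, wolframin of the endoplasmic reticulum, 0.075 ± 0.098, and *Msrb3*, a methionine sulfoxide reductase, 0.056 ± 0.22. *Tbc1d24*, a vesicle-traffic regulator, lay at -0.0042 ± 0.12.

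Several of these readings differed more between dyes than between genotypes. *Tmprss3*, a serine protease of the hair cell, is shown for this after its values were seen. Its ratios were 0.63 and 0.41 with the mutant in Cy5 and -0.48 and -0.48 with the mutant in Cy3, so that its mean of 0.024 ± 0.58 was near 0 (limma adjusted p = 0.820). *Crym*, the thyroid hormone-binding crystallin mu, behaved likewise, with 0.35 and 0.25 against -0.21 and -0.26. For 11 of the 37 genes (29.7%) the sign followed the dye on all 4 arrays, beside 31.9% of all genes tested. For 7 of them (18.9%) the sign was the same on all 4 arrays, beside 18.2% of all genes. The dye term of the fit takes out this offset, and the limma SE of *Tmprss3* was 0.044 beside an SD of 0.58.

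**Figure D3:**
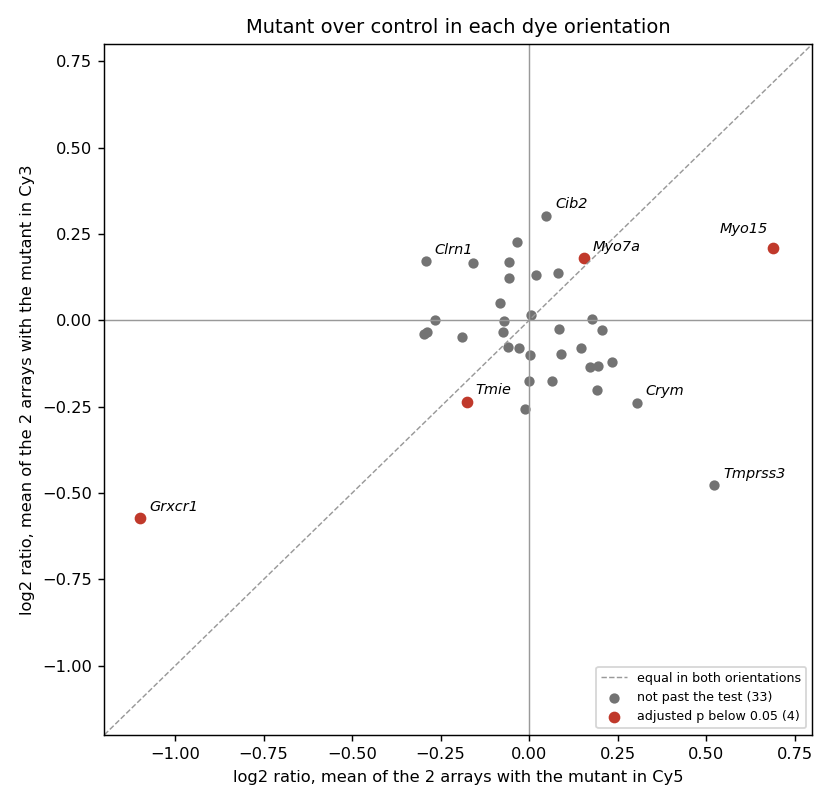
Mean log2 ratio of mutant over control on the arrays with the mutant in Cy5 (x axis) against that on the arrays with the mutant in Cy3 (y axis) for the 37 tested genes, with the 4 called genes in red. *Myo7a* (0.15 and 0.18) and *Tmie* (-0.18 and -0.24) lie near the dashed line of equal ratios, *Myo15* (0.69 and 0.21) and *Grxcr1* (-1.10 and -0.57) lie off it with the same sign, and *Tmprss3* and *Crym* have opposite signs (the *Grxcr1* values rest on mutant signals not above background).

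For 14 of the genes more than 1 probe was tested, 35 probes in all. None of these passed the limma test adjusted over all probes (12 at an unadjusted p below 0.05). The probes of a gene differed by a median of 0.115 and by up to 0.29 (*Ccdc50*), and 6 genes had probes on both sides of 0. The 4 called genes were read by 1 probe each.

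**Figure D4:**
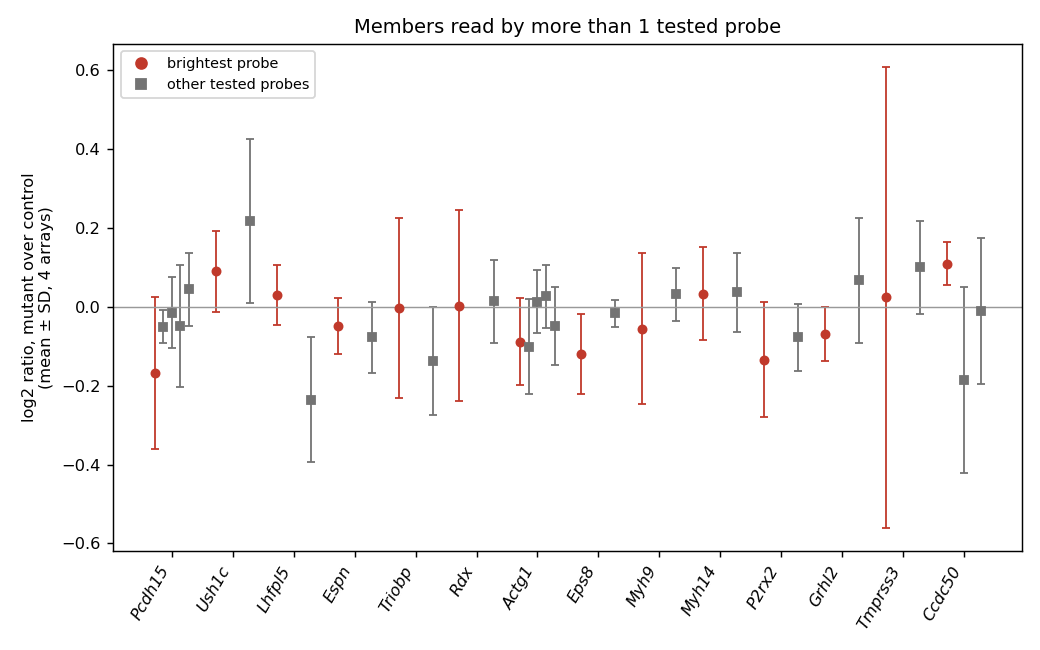
Log2 ratio of mutant over control (y axis, mean with SD bars, n = 4 arrays) of each tested probe of the 14 genes with several tested probes, the brightest probe in red. All means lie between -0.24 and 0.22, and *Tmprss3* has the widest bar (0.58).

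For the 33 genes that did not pass the test, the 95% limma intervals of the brightest probe all lay between -0.29 and 0.28 on the log2 scale, which correspond to a 1.23-fold decrease and a 1.21-fold increase. Dimmer probes of *Lhfpl5* (-0.24) and *Ush1c* (0.22) had larger ratios than their brightest probes and are not covered. The intervals include the spread between the 4 arrays that the dye term leaves. They include neither the dye-linked part of that spread nor an offset shared by the arrays. The SD of the ratio had a median of 0.14 over the 37 genes and of 0.10 over all genes. Female and male pools were compared by the interaction of genotype and sex in limma. It was past adjusted p below 0.05 for 0 of 37 genes (4 at an unadjusted p below 0.05, lowest adjusted p 0.934), beside 0 of all 21042 genes (558 at an unadjusted p below 0.05, lowest adjusted p 0.236), and also for 0 with Agilent's processed signals. For *Tmie* the means were -0.23 in females and -0.18 in males.

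Distances to the engineered loci were also read. No gene of the set was read within 5 Mb of *Sox2* or *Tbx2*, the nearest being *Clrn1* at 24.1 Mb from *Sox2* and *Myo15* at 25.3 Mb from *Tbx2*.

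A further 55 genes of deafness or stereocilia, also chosen with earlier results of these data known, served for comparison, and 51 were tested. Of these, 4 were higher and 6 lower at adjusted p below 0.05 (19.6%, beside 5.18% of all genes), and their median ratio was -0.0082. These 10 genes became 4 without a dye term, with unpaired pools, in the authors' table and without array 1, and 5 with Agilent's processed signals. With a 1.5-fold difference, *Tectb*, a tectorial membrane protein, was higher, and *Otoa*, *Smpx* and *Slitrk6* were lower. *Smpx*, a small protein linked to X-chromosomal deafness, had signals of 8.58, 8.52, 8.40 and 8.42 in the mutant and 9.71, 9.26, 9.47 and 9.52 in the control. The ratio of *Smpx* was -1.01 ± 0.18 (limma adjusted p = 0.00012), with no overlap of the pools, while its second probe was not tested. *Otoa*, otoancorin, which anchors the tectorial membrane, had signals of 12.86, 12.91, 12.87 and 12.97 against 13.65, 13.58, 13.68 and 13.75 and a ratio of -0.76 ± 0.060 (6.5e-05), while its second tested probe gave -0.49, below a 1.5-fold difference. Likewise *Slitrk6*, a membrane protein with a role in cochlear innervation, had 13.14, 13.00, 13.09 and 12.81 against 13.89, 13.65, 13.72 and 13.70 and a ratio of -0.73 ± 0.12 (0.00021). *Tectb* had a ratio of 0.68 ± 0.15 (9.2e-05) and was higher on 4 of 4 arrays.

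Marker lists of cells of the duct, also chosen with earlier results of these data known, were read beside these genes. The shares past the limma test were 35.7% for hair cells, 66.7% for neurons and 40% for Schwann cell precursors. They were 10% for periotic mesenchyme, 14.3% for vascular endothelium and 18.2% for cochlear epithelium, beside 5.18% of all genes tested. Of 14 tested hair cell markers, 3 were higher (*Pcp4*, *Rasd2*, *Chrna10*) and 2 lower (*Jag2*, *Sox21*), with a median ratio of 0.045. The regulators that define hair cells, *Atoh1* (0.047 ± 0.38), *Pou4f3* (0.044 ± 0.26) and *Gfi1* (-0.089 ± 0.19), did not pass the test, and *Calb2* was not above background. The summed signal of the list ranged from 29637 to 41656 in mutant and from 30451 to 33859 in control pools. Signals were summed unlogged, so that the brightest genes of a list weigh most in this and the following sums. Neuronal markers were lower for 7 and higher for 1 of 12 tested genes, with a median of -0.28. Their summed signals were 57179 to 62576 and 58724 to 61213, and *Neurod1* and *Scg2* were not above background. Of 10 markers of Schwann cell precursors, 3 were lower and 1 higher (sums 172970 to 199640 and 176090 to 205720). Among markers of periotic mesenchyme, 1 of 10 was higher and 9 of 10 ratios lay above 0, with a median of 0.089. The summed signals of this list did not overlap between genotypes, at 305490 to 328440 in mutant and 278340 to 293410 in control pools. Of 7 markers of vascular endothelium 1 was higher (sums 37053 to 41537 and 34598 to 38365). None of 8 melanocyte, 7 blood cell and 8 macrophage markers passed the limma test (2, 4 and 1 at an unadjusted p below 0.05). The ratios of the blood cell markers lay above 0 for 7 of 7 genes, with a median of 0.15 and sums of 281350 to 390720 in mutant and 250190 to 357450 in control pools. All 11 markers of cochlear epithelium were above background in 8 of 8 pools, with *Gata3* higher and *Otoa* lower in the mutant. Their ratios lay above 0 for 10 of 11 genes, with a median of 0.034. The sums of this list were 569610 to 589190 in mutant and 533100 to 578830 in control pools. The part of these cells in the values of *Myo15*, *Myo7a*, *Tmie* and *Grxcr1* was not tested.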

How the data were processed

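The 47 genes and the comparison and marker lists were chosen with earlier results of these data known. The deposited scanner files give the mean intensity and median background intensity of each spot in both dyes, made by the authors with Agilent Feature Extraction 10.7.3.1, with flags for spots well above background. The deposited series table holds a score per probe, a signed fold of mutant and control; its scale was read from its values and it served as an alternative. The file headers name a custom design on mm9. The methods name a whole-genome array and an unpaired comparison with a minimum fold of 1.5. Arrays of E18.5 ducts were not analysed here.

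Intensities were corrected with normexp (offset 50) and loess-normalised within arrays in limma 3.58.1 (R 4.3.3), without outlier-flagged and control spots, and log2 ratios of the deposited intensities were averaged over the 4 spots per probe. A gene was read by its brightest tested probe. The fit had the genotype direction and a dye term, 2 residual degrees of freedom and a prior of 5.65, and p-values were adjusted by Benjamini-Hochberg. Pool signals came from separate channels after Aquantile scaling. A lower limit compared the means of the 2 genotypes. Signals of the dim genotype were first raised to at least the lowest signal above background in their array and dye. Summed signals are sums of unlogged normalised signals. The number of arrays limits the precision. The scripts were tested on simulated data. Alternatives were Agilent's processed signals, an offset of 10, median centring, other background filters, no dye term, unpaired pools, the array as a block, the mean of probes, the series table and leaving out each array.

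Values were given in full for genes with adjusted p below 0.05 or above background in one genotype more often by at least 2 pools, and otherwise for the largest absolute ratio in each role.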

Additional observations from a re-analysis of the deposited data

Results flagged for a closer look

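The ratio of *Marveld2* on array 1 was 0.011, apart from -0.080 to -0.066 on the other arrays, with a gap of 0.852 of the range of the 4 arrays. The ratio of *Ccdc50* on array 4 was 0.19, apart from 0.073 to 0.087 on the other arrays, with a gap of 0.883. Chance sets about 1 in 20 such groups of arrays apart, and 37 genes were examined. *Loxhd1* was lower on both female arrays (mean -0.035) and higher on both male arrays (mean 0.057), a male minus female difference of 0.092. This difference did not pass the interaction test in limma, in which the lowest adjusted p of the 37 genes was 0.934.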

How the results depend on the processing

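Of the deafness and stereocilia genes, 2 were higher and 2 lower as reported. The count of higher genes was 1 with Agilent's processed signals, an offset of 10, median centring, unpaired pools and the authors' table, and 0 without a dye term. The count of lower genes was 1 with the filter on all 8 measurements, without a dye term, with unpaired pools and in the authors' table, and 3 with median centring, where *Pcdh15* also passed. Those lower by at least 1.5-fold were 0 with that filter, which does not test *Grxcr1*, and 0 in the authors' table, against 1. Leaving out 1 array gave 1 to 3 higher and 1 to 2 lower genes. With the array as a replicate block the counts were 2 and 2, and none of the 37 calls changed (*Tmie* adjusted p = 0.0264). The 10 comparison genes past the test became 5 with processed signals and 4 without a dye term, with unpaired pools and in the authors' table, and 4 to 10 without 1 array. The 21 marker genes past the test became 11 without a dye term, 7 unpaired and 12 in the authors' table, and 13 to 23 without 1 array. The 5.18% of all genes past the test became 2.93% with processed signals, 1.25% without a dye term, 1.03% with unpaired pools, 1.97% in the authors' table and 1.95 to 6.07% without 1 array (1.95% without array 1, 2.11% without array 3). No called ratio changed sign. In 25 cases a ratio that was not called did, all with reported sizes of at most 0.11. The causes were not tested. Genes below background have no usable ratio, and Cy5 and Cy3 readings of several genes differed by more than the genotypes did.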
